A study of Mus musculus with 6 samples.

Results

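The enzymes, transporters and regulators that carry glucose through glycolysis, the pentose phosphate pathway and the tricarboxylic acid (TCA) cycle were followed in splenic CD8+ T cells of transplanted mice. The members were a list of 48 gene symbols, and the deposited table held 49 entries under these symbols among 14750 genes, because Aldoa occurred as a pair of entries. Total RNA from CD8+ T cells, isolated from spleen with a kit and depleted of ribosomal RNA, was sequenced in 6 libraries. The labels gave 3 libraries as syn-HSCT, in which Balb/c mice received hematopoietic stem cells of Balb/c donors, and 3 as allo-HSCT, in which the Balb/c hosts received cells of C57BL/6 donors. The strain given for all 6 libraries was Balb/c, as for all hosts, and donor strain differed between the groups by design. The conditioning, the time after transplantation, the age of the mice, any pooling of animals and the purity of the isolated cells are not given in the sources used here. The question set by the design was which genes differ between CD8+ T cells after allogeneic and syngeneic transplantation.

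Glycolysis turns glucose into pyruvate in the cytosol, and cells that export lactate regenerate the cofactor that keeps it running. The pentose phosphate pathway branches off after the first step and supplies NADPH and ribose for nucleotides, while pyruvate dehydrogenase passes carbon into the TCA cycle of the mitochondrion. Resting T cells rely mainly on oxidation in mitochondria, and activated effector T cells are known for raising glucose uptake, glycolysis and lactate export.

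Levels are in FPKM, that is fragments per kilobase of exon, scaled to 1000000 fragments in the library. The fragment totals that scaled the values were 15154000 to 18715000 per library, with 15564000, 16351000 and 15154000 in the libraries labelled allo-HSCT. Genes known to differ between the strains went against the labels: H2-Ea-ps, a class II gene that BALB/c mice transcribe and C57BL/6 mice do not, averaged 1955 FPKM ± 48.9 where the label read allo-HSCT but 4.76 FPKM ± 1.66 where it read syn-HSCT (SD, n = 3 each). Gbp2b (17.6-fold higher under the allo-HSCT label) and Ly6a (11.6-fold lower) also ran against the labels, and all 3 genes would match them if the groups were exchanged. The sample titles carry the letter A under the syn-HSCT label and S under the allo-HSCT label, and the sources used here do not settle whether an exchange took place. The directions below therefore compare the libraries by their labels and do not say which transplant was higher. The CD8 T cell identity was present in all 6 libraries, with 11 T cell markers summing to 2148 to 2171 FPKM in the libraries labelled syn-HSCT and 1874 to 1978 FPKM in those labelled allo-HSCT. Of these 11 markers 7 were called lower and 3 higher, and Cd8b1 was not called. Trac (1.61-fold), Cd3g (1.69-fold) and Cd2 (1.70-fold) were among the lower ones. The higher ones were Cd8a (1.46-fold), Lck (1.12-fold) and Cd4, which differed most of the 11. Cd4 was at a mean of 4.84 FPKM under the allo-HSCT label against 0.809 FPKM, 5.98-fold higher. Markers of other cells had higher sums under the allo-HSCT label: 14 dendritic cell markers summed to 5323 to 5628 against 262 to 287 FPKM, 13 neutrophil markers to 2034 to 2152 against 98.00 to 107 FPKM, and 13 macrophage and monocyte markers to 804 to 824 against 57.1 to 60.3 FPKM. Among these markers, Cd209a was the one listed at 0 in all 3 libraries labelled syn-HSCT. Of the tested markers, 12 of 12 dendritic, 12 of 13 neutrophil and 12 of 12 macrophage genes were called higher. Erythroid markers summed to 60.8 to 76.5 against 1.66 to 1.79 FPKM and B and plasma cell markers to 42.99 to 49.4 against 42.7 to 45.4 FPKM, while of 6 NK cell markers tested 3 were called lower and 3 higher, and their sum (1074 to 1156 against 2025 to 2159.7 FPKM) was mostly Gzma, which effector CD8 T cells also express. The B and plasma cell sum was mostly Xbp1 (28.9 against 33.8 FPKM), while Jchain was at 8.18 against 2.10 FPKM. The part that all these other cells have in the values below was not tested. In bulk RNA fewer cells of a type and less RNA per cell cannot be told apart.

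All 49 entries passed the filter of at least 1 FPKM in at least 3 of the 6 libraries, and in the libraries labelled allo-HSCT losses outnumbered gains. By limma's test with Benjamini-Hochberg adjustment over 12404 genes, at an adjusted p under 0.05, 26 entries fell, 13 rose and 10 were not called. Of those that rose, Aldoc, Ldhb and the second Aldoa entry passed the filter because of the libraries labelled allo-HSCT, as given below. The share that fell was 53.1%, where 33.0% of all genes tested fell, and the share that rose was 26.5%, where 34.7% of all genes rose. In either direction 67.6% of all genes were called, so a call by itself did not set a member apart. The median log2 difference of the members was -0.18 and that of all genes tested was 0.0083, on the log2(FPKM + 1) scale, which understates the change of low genes. The groups did not overlap at 27 entries with the lower values under the allo-HSCT label and 14 with the higher ones, where 72.3% of all genes did not overlap (35.3% lower and 37.0% higher). Called differences of 1 or more in size on the log2 scale were found at 4 lower entries (Eno1, Slc16a1, Hif1a and Tpi1) and 4 higher ones (Aldoc, Idh1, Eno1b and Idh2), against 4.93% and 10.2% of all genes. Together the 49 entries summed to 2381 FPKM ± 27.02 in the libraries labelled syn-HSCT and 1878 FPKM ± 10.7 in those labelled allo-HSCT (SD, n = 3 each), a sum that was 1.27-fold lower.

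**Figure D1:**
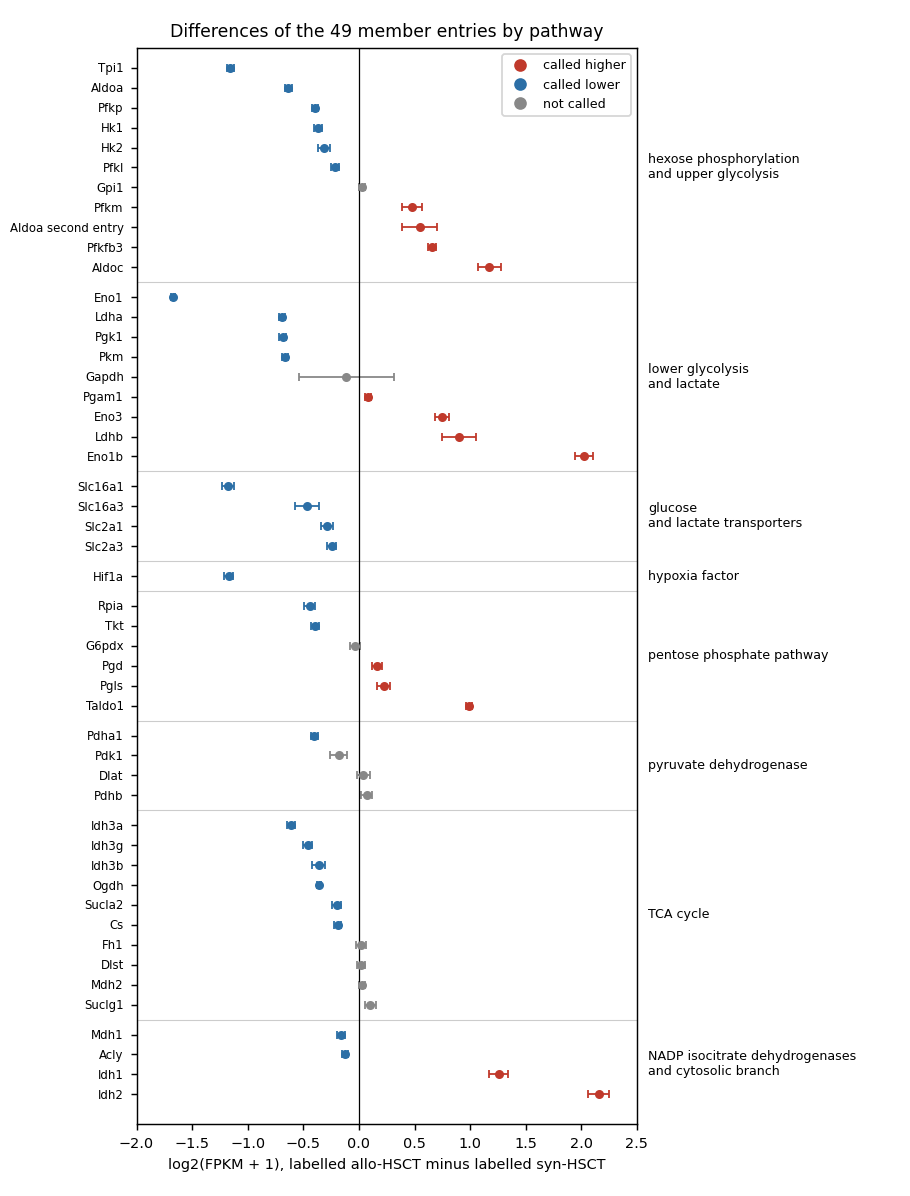
Each point is the difference of 1 entry on the log2(FPKM + 1) scale, libraries labelled allo-HSCT minus those labelled syn-HSCT, with its standard error from limma, and entries are grouped by pathway. Red points were called higher (13 entries), blue points lower (26) and grey points were not called (10); all 4 transporters and Hif1a lie left of 0, while Eno1b and Idh2 lie farthest to the right.

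The regulator among the members, Hif1a, encodes the oxygen-regulated subunit of hypoxia-inducible factor HIF-1, which activates many glycolytic genes. Hif1a was at 50.2, 52.8 and 53.03 FPKM in the libraries labelled syn-HSCT and at 21.9, 23.5 and 22.1 FPKM in those labelled allo-HSCT. All 3 libraries labelled allo-HSCT lay below all 3 labelled syn-HSCT, and Hif1a (chromosome 12 from 73901375 to 73947530 in the GENCODE vM21 annotation of GRCm38) was 2.31-fold lower, with a log2 difference of -1.17 ± 0.037 (SE; limma adjusted p = 5.12e-07). HIF-1 binds DNA at a short core, ACGTG or GCGTG, and the first of these is also part of the CACGTG box bound by MYC and related factors. The stretches of 250 bases before the start sites were read from RefSeq promoters (GRCm38.p6) for 45 of the 48 symbols, taking for each gene the start nearest to its 5′ end in GENCODE vM21; the starts of Hif1a, Ldha and Sucla2 lay 6492, 4329 and 27467 bases inside the annotated gene. Either core, on either strand, was present in 34 of 45 (75.6%) of these stretches and in 38.6% of 32851 stretches of the same length before all listed start sites. These sets are unlike: each member gives 1 start, while the 32851 include every listed start, of genes expressed or not. Both cores contain CG, and the CG content of the sets was not compared. By call, either core was in 17 of 24 entries called lower, 10 of 11 called higher and 7 of 10 not called. ACGTG, with or without GCGTG beside it, was found in 11 of 24 stretches of entries called lower (45.8%) and in 3 of 11 of those called higher (27.3%). It was found in 1 of 10 of those not called and in 16.6% of all stretches. GCGTG had another order: it was found in 10 of 24 (41.7%), 8 of 11 (72.7%) and 7 of 10, and in 28.2% of all stretches. These matches describe letters in a window and not binding.

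The stretches of Ldha, Slc16a1, Hif1a and Eno1, which were lower, and of Idh2, which rose most, are printed below 5′ to 3′ in the direction of transcription. Matches to ACGTG or GCGTG on either strand are in capitals, and every printed stretch holds a match. The choice leaves out members without a match, among them Tpi1 (log2 difference -1.155) and Idh1 (1.255).
Ldha, chr7:46845554-46845803, plus strand: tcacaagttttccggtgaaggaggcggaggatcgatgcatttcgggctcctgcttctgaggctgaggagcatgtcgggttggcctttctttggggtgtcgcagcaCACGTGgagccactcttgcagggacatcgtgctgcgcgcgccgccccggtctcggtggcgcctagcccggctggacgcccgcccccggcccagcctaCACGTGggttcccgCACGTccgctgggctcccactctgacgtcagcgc
Slc16a1, chr3:104638414-104638663, plus strand: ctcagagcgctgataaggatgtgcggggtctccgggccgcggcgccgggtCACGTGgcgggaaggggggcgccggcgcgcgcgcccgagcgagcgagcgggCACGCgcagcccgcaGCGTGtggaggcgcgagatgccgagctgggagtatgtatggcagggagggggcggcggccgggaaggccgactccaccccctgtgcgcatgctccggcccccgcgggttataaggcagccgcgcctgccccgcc
Hif1a, chr12:73907617-73907866, plus strand: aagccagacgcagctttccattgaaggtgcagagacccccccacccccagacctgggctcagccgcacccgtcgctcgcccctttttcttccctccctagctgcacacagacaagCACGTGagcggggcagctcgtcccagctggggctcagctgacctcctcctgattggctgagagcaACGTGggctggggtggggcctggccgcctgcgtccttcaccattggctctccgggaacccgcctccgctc
Eno1, chr4:150236458-150236707, plus strand: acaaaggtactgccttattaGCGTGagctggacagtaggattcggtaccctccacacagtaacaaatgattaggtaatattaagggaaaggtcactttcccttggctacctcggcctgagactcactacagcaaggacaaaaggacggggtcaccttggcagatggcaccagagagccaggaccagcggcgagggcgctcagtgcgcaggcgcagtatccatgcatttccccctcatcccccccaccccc
Idh2, chr7:80115351-80115600, minus strand: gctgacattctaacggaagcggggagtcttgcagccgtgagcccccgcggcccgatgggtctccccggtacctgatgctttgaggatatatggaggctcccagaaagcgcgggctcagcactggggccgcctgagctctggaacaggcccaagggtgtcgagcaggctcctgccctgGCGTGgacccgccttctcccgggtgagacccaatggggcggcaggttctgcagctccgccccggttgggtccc
In Ldha the matches began 145, 144, 48, 47 and 34 bases before the start, where the pairs of adjacent positions are the palindrome CACGTG read on both strands. The Slc16a1 stretch held matches at 200, 199, 149 and 134 bases and the Hif1a stretch at 135, 134 and 70 bases, while Eno1 and Idh2 had a single GCGTG each, at 230 and 73 bases.

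All 4 transporters fell, where 33.0% of all genes tested fell, and the lactate carrier Slc16a1 fell most. Slc2a1 and Slc2a3 encode the glucose transporters GLUT1 and GLUT3, and Slc16a1 and Slc16a3 encode the monocarboxylate carriers MCT1 and MCT4, which move lactate across the cell membrane. Slc16a1 was at 19.9, 18.6 and 17.8 FPKM in the libraries labelled syn-HSCT and at 7.53, 8.097 and 7.63 FPKM in those labelled allo-HSCT, 2.42-fold lower with a log2 difference of -1.18 ± 0.052 (SE; limma adjusted p = 2.2e-06). Slc16a3 was at 4.02, 4.14 and 4.401 FPKM in the libraries labelled syn-HSCT and at 2.21, 3.05 and 3.06 FPKM in those labelled allo-HSCT, a log2 difference of -0.47 ± 0.11 (SE; limma adjusted p = 0.00671). In both lactate carriers the groups did not overlap. The glucose transporters differed less: Slc2a3 was at 30.1, 32.4 and 30.3 FPKM in the libraries labelled syn-HSCT and at 26.9, 25.2 and 25.96 FPKM in those labelled allo-HSCT, 1.19-fold lower (limma adjusted p = 0.00157). Slc2a1 was at 18.4, 17.3 and 17.1 FPKM in the libraries labelled syn-HSCT and at 13.3, 15.2 and 14.3 FPKM in those labelled allo-HSCT, 1.23-fold lower (limma adjusted p = 0.00311). Slc2a3 was the highest of the 4 per kilobase in both groups, and the transporters together summed to 71.5 FPKM ± 1.59 in the libraries labelled syn-HSCT and 50.8 FPKM ± 0.804 in those labelled allo-HSCT (SD, n = 3 each).

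In the upper part of glycolysis Aldoa, the entry with the highest level, and Tpi1 fell, while some minor isoforms rose. Of 11 entries 6 fell, 4 rose and Gpi1, the phosphoglucose isomerase gene, was not called, where 33.0% of all genes tested fell and 34.7% rose. Hexokinases trap glucose in the cell by phosphorylation, and Hk1 was at 28.6, 26.5 and 27.8 FPKM in the libraries labelled syn-HSCT and at 20.9, 20.97 and 21.6 FPKM in those labelled allo-HSCT. Hk2 was at 7.79, 7.75 and 7.88 FPKM in the libraries labelled syn-HSCT and at 5.63, 6.301 and 6.33 FPKM in those labelled allo-HSCT. The hexokinases were 1.31-fold (Hk1) and 1.28-fold (Hk2) lower, with limma adjusted p = 0.000113 and 0.00198, and neither overlapped between groups. Gpi1 was at 68.3, 64.8 and 66.7 FPKM in the libraries labelled syn-HSCT and 66.4, 67.7 and 69.8 FPKM in those labelled allo-HSCT, with overlapping groups and a log2 difference of 0.028 ± 0.03 (SE; limma adjusted p = 0.432).

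Phosphofructokinase, which commits sugar to glycolysis, has liver (Pfkl), muscle (Pfkm) and platelet (Pfkp) forms. Pfkp was at 41.1, 39.8 and 39.7 FPKM in the libraries labelled syn-HSCT and at 30.9, 29.8 and 30.4 FPKM in those labelled allo-HSCT, 1.32-fold lower (limma adjusted p = 1.84e-05). Pfkl was at 11.9, 12.1 and 11.7 FPKM in the libraries labelled syn-HSCT and at 9.83, 10.2 and 10.3 FPKM in those labelled allo-HSCT, 1.18-fold lower (limma adjusted p = 0.00197). Pfkm was at 2.620, 3.41 and 2.93 FPKM in the libraries labelled syn-HSCT and at 4.85, 4.49 and 4.31 FPKM in those labelled allo-HSCT, 1.52-fold higher (limma adjusted p = 0.00261). Pfkp thus remained the form with the highest level per kilobase in every library, and the muscle form moved the other way from the others. Pfkfb3, which encodes the enzyme that makes the main allosteric activator of phosphofructokinase, rose from 7.62 FPKM ± 0.2095 to 12.6 FPKM ± 0.155 (SD, n = 3 each), 1.65-fold (limma adjusted p = 8.45e-06).

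Aldolase splits the hexose into triose phosphates, and Tpi1, the triose phosphate isomerase gene, interconverts the products. Aldoa was at 211, 196 and 197 FPKM in the libraries labelled syn-HSCT and at 131, 127 and 130.3 FPKM in those labelled allo-HSCT, 1.56-fold lower (limma adjusted p = 4.71e-06). Aldoc was at 0.821, 0.526 and 0.5404 FPKM in the libraries labelled syn-HSCT and at 2.91, 2.53 and 2.55 FPKM in those labelled allo-HSCT, 4.24-fold higher (limma adjusted p = 5.69e-05). Aldoc, the brain form, rested on 31 to 148 fragments per library and stayed far below Aldoa in level; it passed the 1 FPKM filter through the libraries labelled allo-HSCT alone, so a difference was built into its being tested. The other Aldoa entry (ENSMUSG00000114515, chromosome 7 from 126800790 to 126809108) held 9 to 25 fragments and rose with a log2 difference of 0.54 ± 0.15 (limma adjusted p = 0.0175), a call that was lost without replicate 3 labelled allo-HSCT (0.0552), without replicate 2 (0.0560) or 3 (0.0551) labelled syn-HSCT, and after quantile normalization (0.224). Tpi1 showed the largest loss of the upper pathway. Tpi1 was at 89.7, 90.2 and 89.96 FPKM in the libraries labelled syn-HSCT and at 39.6, 41.5 and 38.5 FPKM in those labelled allo-HSCT, 2.26-fold lower with a log2 difference of -1.16 ± 0.031 (SE; limma adjusted p = 2.43e-07). The gene lies on chromosome 6 from 124810586 to 124814296 in GENCODE vM21.

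**Figure D2:**
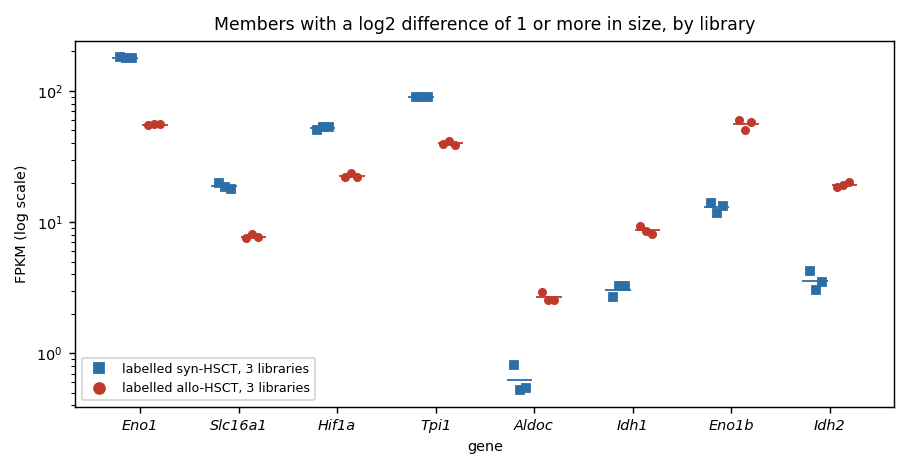
The level of each member with a log2 difference of 1 or more in size is shown in FPKM on a log axis, with 1 point per library and a line at the group mean. Blue squares are the 3 libraries labelled syn-HSCT and red circles the 3 labelled allo-HSCT. Eno1, Slc16a1, Hif1a and Tpi1 are lower and Aldoc, Idh1, Eno1b and Idh2 higher in the libraries labelled allo-HSCT. The 8 genes were chosen by the size of their difference, so the lack of overlap between their groups is no separate result. Of all genes tested 72.3% do not overlap.

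In the lower part of glycolysis the abundant enzymes of ATP and lactate production fell by similar amounts. Pgk1, the phosphoglycerate kinase gene of the first ATP-forming step, fell from 216 FPKM ± 5.15 to 134 FPKM ± 4.42 (SD, n = 3 each), 1.61-fold. Pkm, which encodes the pyruvate kinase of the last step, fell from 220.3 FPKM ± 4.23 to 138 FPKM ± 2.83 (SD, n = 3 each), 1.59-fold. Ldha encodes the lactate dehydrogenase subunit that favours lactate production, and it had the highest level of all members. Ldha was at 312, 309 and 302 FPKM in the libraries labelled syn-HSCT and at 190.4, 194 and 186 FPKM in those labelled allo-HSCT, 1.62-fold lower. The limma adjusted p was 2.51e-06 for Pgk1, 1e-06 for Pkm and 7.89e-07 for Ldha. Ldhb encodes the other subunit, which favours the use of lactate, and Ldhb was at 0.624, 0.282 and 0.272 FPKM in the libraries labelled syn-HSCT and at 1.801, 1.83 and 1.18 FPKM in those labelled allo-HSCT. It was 4.08-fold higher (limma adjusted p = 0.00168) on 8 to 47 fragments per library, and it passed the 1 FPKM filter through the libraries labelled allo-HSCT alone, so a difference was built into its being tested. Pgam1, a phosphoglycerate mutase gene, was at 65.02 FPKM ± 1.702 and 68.8 FPKM ± 1.34 (SD, n = 3) in the same order and was called higher with a log2 difference of 0.08 ± 0.028 (limma adjusted p = 0.0391). That call was lost in 7 of 17 alternatives, among them the libraries left out in turn (replicates 1 and 2 labelled allo-HSCT, 0.0704 and 0.113, and replicates 1 and 3 labelled syn-HSCT, 0.0584 and 0.115), and reached an adjusted p of 0.309 after trimmed-mean scaling.

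Of the glycolytic entries, the enolase genes Eno1 and Eno1b had the largest log2 differences, in opposite directions. Enolase forms phosphoenolpyruvate, and its values depend on how reads were shared between copies. Eno1 was at 180.3, 179 and 178 FPKM in the libraries labelled syn-HSCT and at 54.96, 55.6 and 55.6 FPKM in those labelled allo-HSCT. Eno1 (chromosome 4 from 150236721 to 150248879) was 3.23-fold lower with a log2 difference of -1.68 ± 0.018 (SE; limma adjusted p = 9.34e-09). Eno1b was at 14.1, 11.7 and 13.4 FPKM in the libraries labelled syn-HSCT and at 59.5, 50.8 and 57.8 FPKM in those labelled allo-HSCT, 4.297-fold higher (limma adjusted p = 1.57e-06). Eno1b is a near-identical copy of Eno1: the best alignment between their GENCODE transcripts held 1736 bases, of which 1727 were identical (99.5%), and 85.2% of the stretches of 50 bases in Eno1b occurred exactly in transcripts of other genes. The assignment of reads between the copies is therefore uncertain. In fragments recovered from the FPKM values, Eno1 held 14849, 17414 and 17925 and Eno1b 404, 396 and 470 in the libraries labelled syn-HSCT, and Eno1 held 4601, 4893 and 4530 and Eno1b 1739, 1558 and 1644 in those labelled allo-HSCT. Eno1b took 2.48% ± 0.223 of the fragments of the pair in the libraries labelled syn-HSCT and 26.1% ± 1.71 in those labelled allo-HSCT (SD, n = 3 each). Summed over both copies, the pair was at 988 ± 7.13 against 403 ± 7.42 fragments per 1000000 (SD, n = 3 each), a loss of 2.45-fold. This sum is not scaled by exon length, which was 5379 bases for Eno1 and 1877 for Eno1b. A sum of FPKM gives the shorter Eno1b more weight and would show a smaller loss, so the enolase step is not ranked against other steps. The loss of Eno1 transcript was thus also present, at a smaller size, when its copy was counted with it. Eno3, the muscle enolase gene, is less similar to Eno1 (79.0% identity over 1217 aligned bases) and shared no stretch of 50 bases with another gene. Eno3 was at 11.2, 9.93 and 11.9 FPKM in the libraries labelled syn-HSCT and at 20.02, 18.3 and 18.9 FPKM in those labelled allo-HSCT, 1.74-fold higher (limma adjusted p = 7.06e-05).

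**Figure D3:**
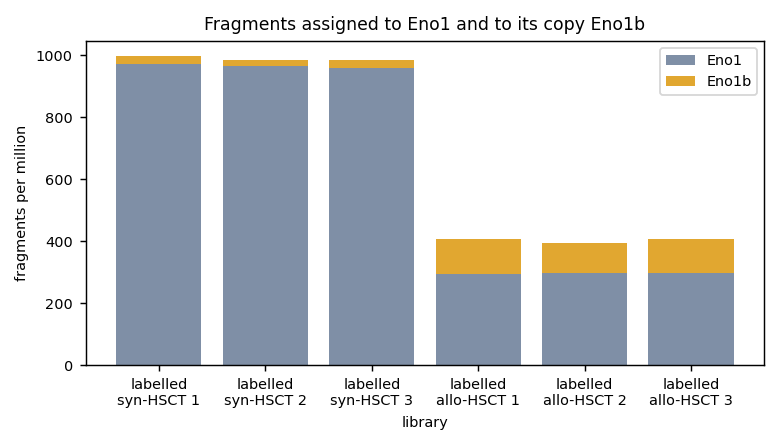
Bars show the fragments per 1000000 recovered for Eno1 (grey) and its near-identical copy Eno1b (yellow) in each of the 6 libraries. The stacked total averages 988 in the libraries labelled syn-HSCT and 403 in those labelled allo-HSCT, and Eno1b makes up 2.48% and 26.1% of it.

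Gapdh, the glyceraldehyde phosphate dehydrogenase gene, varied more within a group than between the groups. Gapdh was at 17.1, 5.27 and 4.49 FPKM in the libraries labelled syn-HSCT and at 6.82, 6.54 and 7.31 FPKM in those labelled allo-HSCT. Replicate 1 labelled syn-HSCT stood apart from the other 5 libraries, the groups overlapped, and the log2 difference was -0.12 ± 0.43 (SE; limma adjusted p = 0.827). Without that library Gapdh was called higher in the libraries labelled allo-HSCT, with a log2 difference of 0.43 (limma adjusted p = 0.00585). Its level per kilobase lay below those of Tpi1, Pgk1, Pkm and Ldha in every library, and 24.7% of its stretches of 50 bases occurred in 218 other genes, 204 of them annotated pseudogenes. Such sharing was high in 7 of the 49 entries, at 20% or more of their stretches: beside Gapdh, Eno1 and Eno1b these were Pgk1 (53.9%), Pgam1 (36.2%), Pkm (25.8%) and Ldhb (21.0%). In 34 entries it was under 5% and in 23 no stretch was shared, among them Slc16a1, Idh1 and Idh2, while Tpi1 shared 4.18% and Hif1a 1.72%. Exons of neighbouring genes covered 10% or more of the exon bases of 6 entries (Pgls, Pdha1, Pkm, G6pdx, Gpi1 and Pfkm), and since counting by strand was not stated, reads of these overlaps are uncertain.

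The summed levels show how much transcript each pathway held. The upper pathway summed to 458 FPKM ± 11.4 in the libraries labelled syn-HSCT and 326 FPKM ± 2.14 in those labelled allo-HSCT (SD, n = 3 each). The lower pathway with lactate dehydrogenase summed to 1022 FPKM ± 14.7 in the libraries labelled syn-HSCT and 670.4 FPKM ± 9.51 in those labelled allo-HSCT (SD, n = 3 each), 1.52-fold lower. The pentose phosphate members were the group whose sum moved most in the other direction, as shown in the plot of summed levels.

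**Figure D4:**
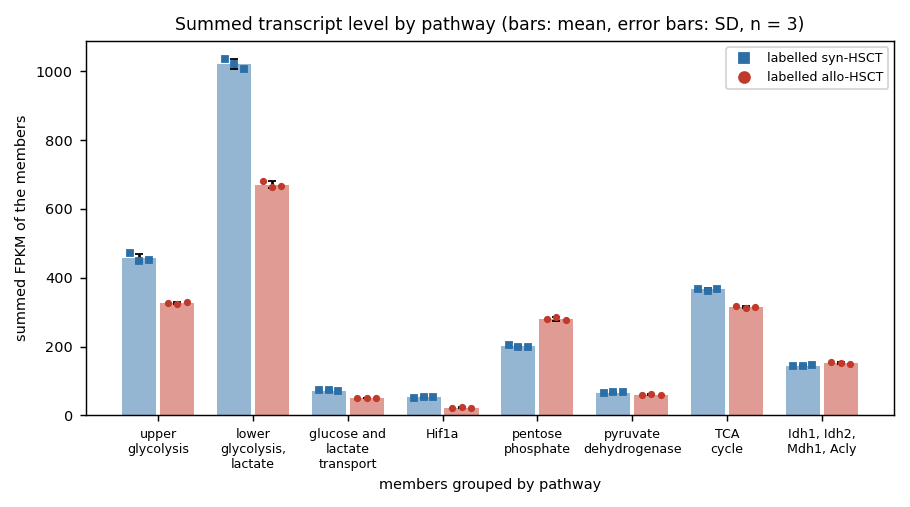
Bars give the mean summed FPKM of the members of each pathway, error bars the SD over 3 libraries and points the single libraries, in blue for those labelled syn-HSCT and red for those labelled allo-HSCT. Lower glycolysis with lactate dehydrogenase falls from 1022 to 670.4 FPKM, and the pentose phosphate sum goes from 201 to 281 FPKM. In the latter sum Taldo1 alone goes from 89.8 to 179 FPKM, and the other members together are lower under the allo-HSCT label.

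Of the 6 pentose phosphate members, 3 rose, 2 fell and 1 was not called, where 34.7% of all genes tested rose and 33.0% fell. Taldo1, which encodes the transaldolase that links the pathway back to glycolysis, had the highest level and the largest change. Taldo1 was at 92.1, 89.3 and 88.1 FPKM in the libraries labelled syn-HSCT and at 178, 185 and 176 FPKM in those labelled allo-HSCT, 1.998-fold higher with a log2 difference of 0.99 ± 0.028 (SE; limma adjusted p = 3.01e-07). The other enzymes of the non-oxidative arm went the other way: Tkt, the transketolase gene, fell from 43.01 FPKM ± 2.14 to 32.5 FPKM ± 0.597 and Rpia, the ribose phosphate isomerase gene, from 12.6 FPKM ± 0.636 to 8.99 FPKM ± 0.334 (SD, n = 3 each; limma adjusted p = 0.00012 and 0.000224). In the oxidative arm, which makes NADPH, the first enzyme G6pdx was at 23.6, 23.7 and 22.6 FPKM in the libraries labelled syn-HSCT and 22.03, 22.1 and 23.98 FPKM in those labelled allo-HSCT. The groups overlapped at G6pdx, with a log2 difference of -0.037 ± 0.042 (SE; limma adjusted p = 0.464). Pgls, the lactonase gene, rose from 10.4 FPKM ± 0.6103 to 12.3 FPKM ± 0.581 and Pgd, the phosphogluconate dehydrogenase gene, from 22.2 FPKM ± 1.06 to 24.9 FPKM ± 0.687 (SD, n = 3 each; limma adjusted p = 0.0105 and 0.0123). The sum of the pathway was 201 FPKM ± 3.82 in the libraries labelled syn-HSCT and 281 FPKM ± 5.16 in those labelled allo-HSCT (SD, n = 3 each), and Taldo1 alone was 89.8 and 179 FPKM of it.

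At the entry to the TCA cycle, 1 of 4 pyruvate dehydrogenase members was called, where 67.6% of all genes tested were called. Pdha1, which encodes the alpha subunit of the first enzyme of the complex, was at 30.03, 30.8 and 31.5 FPKM in the libraries labelled syn-HSCT and 22.7, 22.7 and 23.7 FPKM in those labelled allo-HSCT, 1.34-fold lower (limma adjusted p = 3.37e-05). Its partner Pdhb was at 23.1, 24.4 and 22.8 FPKM and 23.6, 26.4 and 24.1 FPKM in the same order, with a log2 difference of 0.072 ± 0.049 (limma adjusted p = 0.234). Dlat, the acetyltransferase gene of the complex, was at 8.84, 8.57 and 9.55 FPKM and 9.03, 9.901 and 8.86 FPKM (log2 difference 0.04 ± 0.059, limma adjusted p = 0.578). Both partners of Pdha1 overlapped between the groups. Pdk1 encodes a kinase that switches the complex off and is a known HIF-1 target, and it was at 3.08, 3.51 and 3.03 FPKM and 2.56, 2.67 and 2.88 FPKM in that order. All its values in the libraries labelled allo-HSCT were the lower ones, yet it was not called (log2 difference -0.18 ± 0.074, SE; limma adjusted p = 0.064); it was called lower in 4 of the 16 alternatives that included it, with adjusted p down to 0.00274 after quantile normalization.

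In the TCA cycle 6 of 10 members fell, none rose and 4 were not called. Of all genes tested 33.0% fell and 34.7% rose. The losses were at the citrate, isocitrate, oxoglutarate and succinyl-CoA steps. All 3 subunit genes of the NAD-dependent isocitrate dehydrogenase fell: Idh3a from 29.2 FPKM ± 1.14 to 18.8 FPKM ± 0.234, Idh3b from 41.1 FPKM ± 2.23 to 31.8 FPKM ± 2.01 and Idh3g from 40.7 FPKM ± 1.67 to 29.3 FPKM ± 0.843 (SD, n = 3 each; limma adjusted p = 8.27e-06, 0.00108 and 4.68e-05). Ogdh, of the oxoglutarate dehydrogenase complex, fell from 60.5 FPKM ± 0.0738 to 46.96 FPKM ± 0.638 (SD, n = 3 each; limma adjusted p = 9.13e-06), while Dlst of the same complex was not called. Cs, the citrate synthase gene, was 1.14-fold lower and Sucla2, a succinyl-CoA ligase subunit gene, 1.16-fold lower (limma adjusted p = 0.00159 and 0.00441).

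The other 4 members of the cycle were not called. Mdh2 was at 65.8, 67.9 and 65.5 FPKM in the libraries labelled syn-HSCT and at 68.6, 65.8 and 68.6 FPKM in those labelled allo-HSCT, and this mitochondrial malate dehydrogenase gene had the highest level of the cycle. Fh1 was at 22.9, 24.5 and 22.1 FPKM in the libraries labelled syn-HSCT and at 24.2, 23.1 and 22.8 FPKM in those labelled allo-HSCT, where Fh1 encodes fumarase. Dlst was at 19.2, 18.9 and 17.8 FPKM in the libraries labelled syn-HSCT and at 18.4, 19.3 and 18.8 FPKM in those labelled allo-HSCT. The groups overlapped at all 3, with log2 differences of 0.027 ± 0.027, 0.015 ± 0.045 and 0.017 ± 0.039 (SE) and limma adjusted p of 0.418, 0.788 and 0.719. Suclg1, the other succinyl-CoA ligase subunit gene, was at 13.99, 14.01 and 12.7 FPKM in the libraries labelled syn-HSCT and 14.96, 14.04 and 14.8 FPKM in those labelled allo-HSCT, without overlap and without a call (limma adjusted p = 0.113). The 10 genes together summed to 366 FPKM ± 3.099 in the libraries labelled syn-HSCT and 315 FPKM ± 3.55 in those labelled allo-HSCT (SD, n = 3 each).

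The NADP-dependent isocitrate dehydrogenases rose in contrast to the NAD-dependent form. Idh2 encodes the mitochondrial and Idh1 the cytosolic NADP-dependent enzyme, and both produce NADPH. Idh2 was at 4.21, 3.04 and 3.49 FPKM in the libraries labelled syn-HSCT and at 18.5, 19.05 and 20.3 FPKM in those labelled allo-HSCT, 5.39-fold higher, the largest difference among all members, at 2.15 ± 0.096 (SE) on the log2 scale (limma adjusted p = 2.34e-06). Idh1 was at 2.66, 3.25 and 3.24 FPKM in the libraries labelled syn-HSCT and at 9.27, 8.59 and 8.12 FPKM in those labelled allo-HSCT, 2.84-fold higher with a log2 difference of 1.255 ± 0.081 (SE; limma adjusted p = 1.38e-05). The groups were far apart at both genes, which rested on 142 to 806 and 113 to 400 fragments per library. Sums of the dendritic cell, neutrophil and macrophage markers, given above, moved in the same direction, and their part in the values of Idh1, Idh2 and Taldo1 was not tested. Mdh1, the cytosolic malate dehydrogenase gene, was at 70.7, 74.1 and 75.7 FPKM in the libraries labelled syn-HSCT and 67.2, 66.3 and 62.9 FPKM in those labelled allo-HSCT, 1.12-fold lower (limma adjusted p = 0.00604). Acly, which encodes the enzyme that turns exported citrate into acetyl-CoA, fell from 64.4 FPKM ± 1.896 to 58.8 FPKM ± 0.332 (SD, n = 3 each), 1.09-fold (limma adjusted p = 0.0048). After quantile normalization neither was called (limma adjusted p = 0.178 for Mdh1 and 0.443 for Acly).

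Ratios of related genes within a library do not depend on its scaling, and they describe how unequally related forms changed. For 10 pairs the log2 ratio was compared by a two-sided exact permutation test over 20 assignments, in which 3 libraries against 3 cannot give less than p = 0.1. The groups did not overlap for 8 pairs (exact p = 0.1 each, 0.125 after Benjamini-Hochberg adjustment over the 10), so none could pass 0.05. Of all single genes tested 72.3% did not overlap, and no such share was taken for ratios of other genes. For Aldoc/Aldoa, Ldhb/Ldha, Eno3/Eno1 and Pfkm/Pfkl the genes themselves had separated in opposite directions, so their ratios could not overlap. Ldhb over Ldha was 0.001999, 0.000911 and 0.000902 in the libraries labelled syn-HSCT and 0.00946, 0.00944 and 0.00634 in those labelled allo-HSCT, a shift of 2.81 on the log2 scale. Aldoc over Aldoa went from 0.00388, 0.00268 and 0.00274 to 0.0223, 0.0199 and 0.0196 in the same order, a shift of 2.75. Eno3 over Eno1 went from 0.0619, 0.0554 and 0.0666 to 0.364, 0.329 and 0.3400, a shift of 2.49 that includes the uncertain Eno1 reads. In these 3 pairs the second gene kept the higher level in every library, and the shifts of the first 2 rest on Ldhb and Aldoc, which passed the filter only through the group where they were high.

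Smaller shifts were seen at Idh2 over Idh1 (0.93), Pfkm over Pfkl (0.85), Slc16a3 over Slc16a1 (0.67), Mdh2 over Mdh1 (0.19) and Pfkp over Pfkl (-0.17). Idh2 over Idh1 was 1.58, 0.933 and 1.08 in the libraries labelled syn-HSCT and 1.99, 2.22 and 2.502 in those labelled allo-HSCT. The hexokinase and glucose transporter pairs overlapped between the groups. Hk2 over Hk1 was 0.272, 0.293 and 0.284 against 0.2697, 0.301 and 0.293, a shift of 0.024 (exact p = 0.7). Slc2a3 over Slc2a1 was 1.64, 1.88 and 1.77 against 2.02, 1.65 and 1.82, a shift of 0.051 (exact permutation p = 0.6). In these pairs both members fell, as given above.

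**Figure D5:**
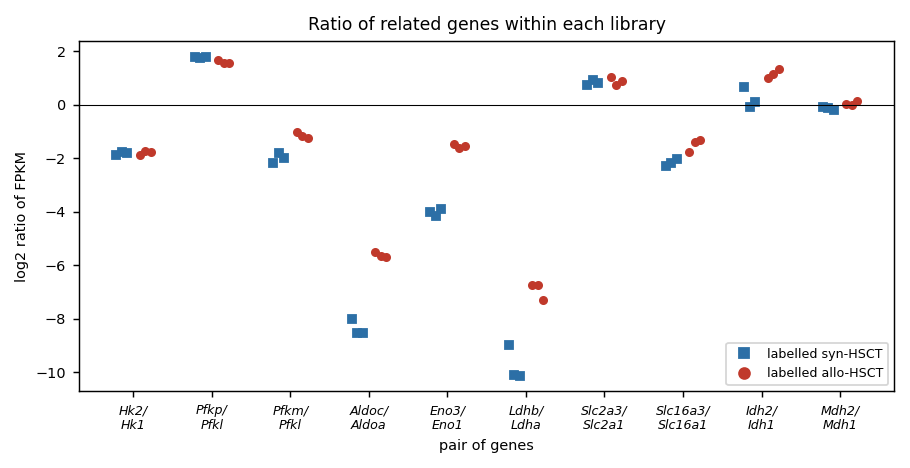
The log2 ratio of the FPKM of the first gene to that of the second is shown for 10 pairs of related genes, with 1 point per library (blue squares labelled syn-HSCT, red circles labelled allo-HSCT). The groups overlap for Hk2/Hk1 and Slc2a3/Slc2a1 and are apart for the other 8 pairs, most widely for Ldhb/Ldha, Aldoc/Aldoa and Eno3/Eno1. Of all single genes tested 72.3% do not overlap.

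Among the other genes of these pathways, losses and gains were near balance. Of 112 further genes listed for glycolysis, the pentose phosphate pathway, pyruvate and TCA metabolism and the HIF pathway, 87 had an entry and 80 were tested. Of these 30 fell (37.5%), 27 rose (33.8%) and 23 were not called, shares close to those of all genes (33.0% and 34.7%), with a median log2 difference of -0.039. By list, 8 fell and 8 rose of 21 glycolysis genes, 4 fell and 1 rose of 9 pentose phosphate genes, 11 fell and 9 rose of 28 pyruvate and TCA genes, and 7 fell and 9 rose of 22 genes listed for the HIF pathway. The 9 include Myc, Mtor, Rptor and Prkaa1, which are general regulators of growth and metabolism. Of the genes that rose, Bnip3, Car12, Pfkfb4, Slc2a6 and Pdk2 passed the 1 FPKM filter only through the libraries labelled allo-HSCT. Egln3, which fell, passed only through those labelled syn-HSCT, so a difference was built into the testing of these genes. Epas1, which encodes the related subunit HIF-2 alpha, changed most, from 35.3 FPKM ± 1.71 to 2.57 FPKM ± 0.131 (SD, n = 3 each), 13.7-fold lower (limma adjusted p = 2.6e-08). Bhlhe40, a transcription factor gene that responds to hypoxia and T cell activation, fell from 119 FPKM ± 0.243 to 39.8 FPKM ± 0.674 (SD, n = 3 each; limma adjusted p = 1.97e-08). Slc2a8, a glucose transporter gene of intracellular membranes, was 4.97-fold lower, at 7.89 and 1.59 FPKM (limma adjusted p = 4.79e-07). P4ha1, a prolyl hydroxylase gene induced by HIF-1, went up instead, from 8.11 to 17.3 FPKM.

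Hk3, the hexokinase gene known for its expression in myeloid cells, had the largest gain among the 80 genes, from 1.89 FPKM ± 0.368 to 26.6 FPKM ± 1.07 (SD, n = 3 each), 14.1-fold higher (limma adjusted p = 3.3e-07). Beside it Adpgk, an ADP-dependent glucokinase gene, was 3.24-fold higher, Ier3, an immediate early gene kept in the glycolysis list, 2.38-fold higher, and Acss1, a mitochondrial acetyl-CoA synthetase gene, 2.24-fold higher. Their limma adjusted p was 5.41e-06, 0.000101 and 1.15e-06. The myeloid marker sums given above were higher in the same libraries as Hk3, and their part in it was not tested.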

How the data were processed

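The deposited table gave FPKM values of 14750 genes in 6 libraries; this unit was read from the values, and the aligner, counter and build are not given in the sources used here. Multiplied by each gene's exon length in GENCODE vM21, the deposited FPKM came out as whole fragments (within 0.1) for 94.3% to 94.6% of values above 0. Fragments were recovered this way for 14739 genes. Of these, 13718 were whole in all 6 libraries, and the values of the rest were rounded. In every library the recovered fragments of the listed genes summed to more than the total that scaled the values, for a reason not given in the sources used here. No listed gene had a larger group mean under 0.500 FPKM. Limma is named, without a role, in the submitters' processing notes.

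Groups were taken from the donor and host named in the labels. Because the labels do not state separate animals, p-values cover only the spread among these 6 libraries, which may be technical. The 12404 genes reaching 1 FPKM in 3 or more libraries were put on the log2(FPKM + 1) scale; limma 3.58.1 (R 4.3.3; eBayes with trend, no covariates) gave the test, tested on simulated data, with Benjamini-Hochberg adjustment over all of them. Folds are ratios of mean FPKM. Every member is named; values per library are given for members with a log2 difference of 1 or more in size, the highest of each pathway, members of pairs, Hif1a and those not called. Further genes are named at a called difference of that size and a larger group mean of at least 5 FPKM. The members and lists were chosen with earlier results of these data known. Shared stretches of 50 bases were counted in GENCODE vM21 transcripts. The alternatives left out each library, added a replicate block, changed filter, pseudocount, scaling or eBayes settings, dropped antigen receptor, haemoglobin and mitochondrial genes, ran limma's voom on recovered fragments, or asked for a 2-fold difference.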

Additional observations from a re-analysis of the deposited data

How the results depend on the processing

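Of the 39 members called, 35 kept their call and direction under every alternative run on them other than the 2-fold threshold (17, or 16 for Pfkm, Aldoc, Ldhb and Slc16a3, which the 5 FPKM filter removed); the other 4 (the second Aldoa entry, Pgam1, Mdh1 and Acly) lost the call in at least 1, and none changed direction. Of the 10 not called, 3 (Gpi1, Mdh2 and Pdk1) were called in at least 1 alternative with the direction kept, and Gapdh was called with its direction reversed without replicate 1 labelled syn-HSCT (log2 difference 0.43). With 1 library left out, Gapdh ranged from -0.43 to 0.43, Dlat from -0.0043 to 0.080, Dlst from -0.013 to 0.038 and Fh1 from -0.017 to 0.054, on the log2 scale. After trimmed-mean scaling Gpi1 (-0.017), Mdh2 (-0.019), Dlst (-0.027), Fh1 (-0.029) and Dlat (-0.0016) changed sign without a call, as Dlat did after quantile normalization (-0.0018). Their causes were not tested.

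The numbers of called members stayed within 1.5 times under all alternatives except a 2-fold threshold, which left 4 lower and 4 higher; over all genes it left 611 lower and 1264 higher, and among the other pathway genes 3 and 8. A filter at 5 FPKM gave 2817 higher over all genes and 17 among the other pathway genes, since fewer genes were tested. Quantile normalization turned the balance over all genes to 3742 higher and 4790 lower, and trimmed-mean scaling to 3971 higher and 4483 lower; they shifted the median of all genes by -0.076 and -0.039. The ratio of allo-HSCT to syn-HSCT sums after trimmed-mean scaling moved by more than its SD to 0.691 (upper glycolysis), 0.636 (lower glycolysis and lactate), 0.688 (transporters), 1.35 (pentose phosphate), 0.833 (TCA cycle) and 1.02 (Idh1, Idh2, Mdh1 and Acly). With a library left out, Hk2/Hk1 ranged from -0.00793 to 0.0702 and Slc2a3/Slc2a1 from -0.0224 to 0.122 on the log2 scale, crossing 0. With the replicate number as a block 13 members rose and 26 fell, as without it; the numbers did not pair the libraries, since deviations of same-numbered libraries correlated at 0.063, 0.12 and -0.083, and the block gave 4164 higher and 3949 lower over all genes. Depth limits Ldhb and the second Aldoa entry, with as few as 8 and 9 fragments in a library.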

Other observations

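The genes in this paragraph were chosen after their values were seen, and 67.6% of all genes tested were called. All 4 subunit genes of succinate dehydrogenase, the TCA enzyme that is also complex II of the respiratory chain, fell in the libraries labelled allo-HSCT: Sdha was 1.21-fold, Sdhb 1.46-fold, Sdhc 1.27-fold and Sdhd 1.13-fold lower, with limma adjusted p of at most 0.00128. Dld, which encodes the subunit shared by the pyruvate and oxoglutarate dehydrogenase complexes, was 1.29-fold lower (limma adjusted p = 4.76e-05), as was Pdha1, while Pdhb, Dlat and Dlst were not called. The mitochondrial pyruvate carrier genes moved apart, with Mpc1 1.43-fold lower and Mpc2 1.52-fold higher (limma adjusted p = 0.0272 and 0.000656). Myc, a transcription factor gene that activates glycolytic genes in dividing T cells, rose from 19.7 FPKM ± 1.48 to 30.9 FPKM ± 0.404 (SD, n = 3 each; limma adjusted p = 5.15e-05), opposite in direction to Hif1a.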
